A study of Mus musculus with 24 samples.

Results

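Old and young mouse lungs were compared 1 h after the blood supply to the left lung was restored. The 8 libraries were the 4 old and the 4 young reperfused lungs labelled 1 h, chosen by their sample labels out of 24 libraries in 6 groups. All mice were wild-type C57BL/6J males. The young mice were 8 to 12 weeks old and the old mice 22 to 24 months old. Both ages had the left hilum (artery, vein and bronchus) clamped for 60 min and then open for 1 h. Sham lungs of both ages, 4 libraries each, served as a second age comparison with which the 1 h groups share no library. The labels do not give the time at which sham lungs were taken, a batch, a date or a lane. Whether each library is its own animal is not stated, and every p-value therefore describes variation between libraries, part of which may be technical.

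Ischemia-reperfusion injury follows clamping or transplantation of the lung: cells deprived of flow and ventilation are re-exposed to oxygen, stress and early genes are switched on within minutes, the capillary endothelium and the thin alveolar type 1 epithelium leak, and neutrophils enter from the blood. Alveolar type 2 cells make surfactant and replace type 1 cells. The ageing mouse lung is known for gathering lymphocytes and antibody-secreting plasma cells and for lower synthesis of new collagen by fibroblasts. These statements are background and not results.

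Depth was alike in both groups, at 29144117 to 32909231 estimated reads in old and 27850677 to 42241406 in young libraries. Defining transcripts of lung were present in all 8, with Sftpc, the surfactant protein of alveolar type 2 cells, at 4304.8 to 12645.5 CPM (counts scaled to a common library total) and Cdh5, an endothelial cadherin, at 693 to 1715.5 CPM. A library property moved with age among the 1 h libraries, though not among sham libraries, and stands beside every result below. In the young 1 h libraries, genes rich in guanine and cytosine (GC) were raised and GC-poor genes lowered, relative to the mean of all libraries. The Spearman rho of a library's deviation with GC content, across genes of that library, was 0.34 to 0.50 in young 1 h, -0.34 to -0.21 in old 1 h and -0.41 to -0.27 in the 8 sham libraries. The 1 day libraries also enter that mean, and their rho was 0.24 to 0.50 in young and -0.22 to -0.02 in old lung. The source of this trend was not tested. Counts of called genes are therefore given as fitted and, where they differ, with the trend removed from each library. Old library 1 also stood apart from the other 3 old libraries in several blood cell genes, and values without it are given where it decides a result.

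Of 19690 genes tested, 4034 were higher and 4231 lower in old than in young reperfused lung at an adjusted p, or false discovery rate (FDR), under 0.05 (edgeR's quasi-likelihood test with Benjamini-Hochberg adjustment), which is 20.5% and 21.5% of the genes tested and 42% together. Differences beyond 2-fold were fewer, 1304 higher and 401 lower. With the GC trend removed, 18144 genes with a GC value were tested, and 2976 were higher and 2984 lower, 16.4% each and 32.8% together. Counts in the gene lists below are to be read against these shares. Both fits called 2181 genes higher and 2213 lower. A further 1579 higher and 1929 lower calls were lost on removal of the trend, 788 and 703 were made only after it, and 68 went from higher to lower and 7 from lower to higher.

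The split by GC content was steep before removal. Among the 1004 genes with at most 40% GC, 680 were higher and 18 lower in old lung. Among the 741 genes above 60% GC, 27 were higher and 341 lower. Across the 18144 genes, Spearman's rho between GC content and the age difference was -0.48, and -0.003 after removal. The median difference over all genes was 0.02 on the log2 scale in both fits. The CPM ranges of old and young libraries did not overlap for 7751 genes (39.4% of those tested), 19.7% with old and 19.7% with young libraries higher.

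**Figure D1:**
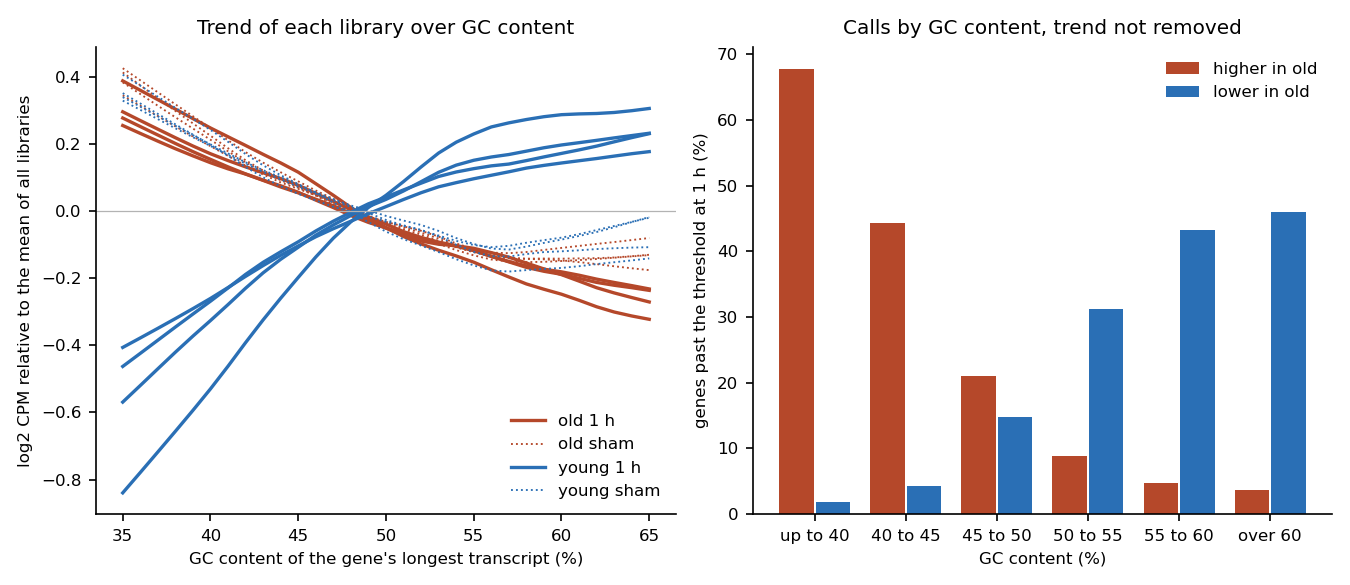
Left, the smoothed log2 CPM of each library relative to the mean of all libraries (y axis) against the GC content of a gene's longest transcript in percent (x axis); solid lines are 1 h libraries, dotted lines sham libraries, red old and blue young. The 4 young 1 h lines rise with GC content while the old 1 h and the sham lines fall. The 1 day libraries enter the mean and are not drawn. Right, the percent of genes past the threshold at 1 h (y axis) in bins of GC content (x axis), with 680 of 1004 genes higher in old lung in the lowest bin and 341 of 741 lower in the highest.

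Antibody transcripts showed the largest differences. Transcripts of switched immunoglobulin heavy chains (the constant regions of IgG) were abundant in old reperfused lung and near the limit of detection in young lung. IgM, IgA and kappa light chain transcripts were higher in old lung as well, and so was Jchain, the joining chain that links IgM and IgA into polymers. Of the 192 immunoglobulin segments tested, of 389 in the table, 153 were higher in old lung and 0 lower, with a median difference of 3.27 (log2). With the GC trend removed 149 were higher. The low-count filter keeps a segment that has enough reads in any 4 libraries. Segments scarce in young lung could thus be tested through an old group alone, which favours calls of higher over lower. The segments also share the same 8 libraries and are not independent replicates. In this bulk tissue more plasma cells and more RNA per cell cannot be told apart, and the same holds for every cell type below.

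Ighg2c, the IgG2c constant region of this strain, stood at 1499, 144, 219 and 33.9 CPM in old libraries 1 to 4 and at 0.104, 1.21, 0.152 and 0.675 CPM in young libraries 1 to 4. The groups did not overlap, and their summed counts were 54511 and 59. The difference was 9.87 ± 1.71 (log2, SE; FDR = 0.00015), 8.03 (FDR = 0.00036) without old library 1 and 10.68 (FDR = 0.00068) without young library 2. Ighg2b (IgG2b) was 831, 86.5, 78.9 and 34.9 CPM in old and 1.28, 2.70, 0.862 and 1.55 CPM in young libraries. It differed by 7.36 ± 1.44 (FDR = 0.00044), and by 5.41 (FDR = 0.0016) without old library 1. Ighg1 differed by 7.14 (FDR = 0.0040; 4.5, FDR = 0.029 without old library 1). Ighg3 differed by 6.12 (FDR = 0.00012; 4.82, FDR = 0.00037 without that library). In all IgG genes named, old library 1 was the highest and every old library exceeded every young one.

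Ighm, the IgM heavy chain made by both B cells and plasma cells, was 4104.6, 2935.7, 2329.7 and 800.0 CPM in old and 224, 208, 353 and 392 CPM in young libraries, a difference of 3.11 ± 0.91 (FDR = 0.0097). Igkc, the kappa light chain constant region, was 2909.9, 1154.1, 1048.4 and 410 CPM against 133, 148, 185 and 234 CPM. Its difference was 2.98 ± 0.80 (FDR = 0.0053; 2.32, FDR = 0.026 without old library 1). Jchain was 475, 198, 207 and 53 CPM in old and 6.14, 5.30, 8.04 and 6.36 CPM in young libraries, with no overlap, and differed by 5.17 ± 0.83 (FDR = 6.2e-05; 4.56, FDR = 0.00023 without old library 1). Igha, the IgA heavy chain, was higher by 1.75 (FDR = 0.031), a call that was lost (FDR = 0.051 to 0.12) without old library 1 or 3 or without young library 1, 2 or 4. Ighd, the IgD heavy chain of resting B cells, did not pass, at 14.9, 118, 71.3 and 89.6 CPM in old and 38.8, 37.5, 65.5 and 72.8 CPM in young libraries. Without old library 1, in which it was lowest, Ighd differed by 0.80 (FDR = 0.021).

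**Figure D2:**
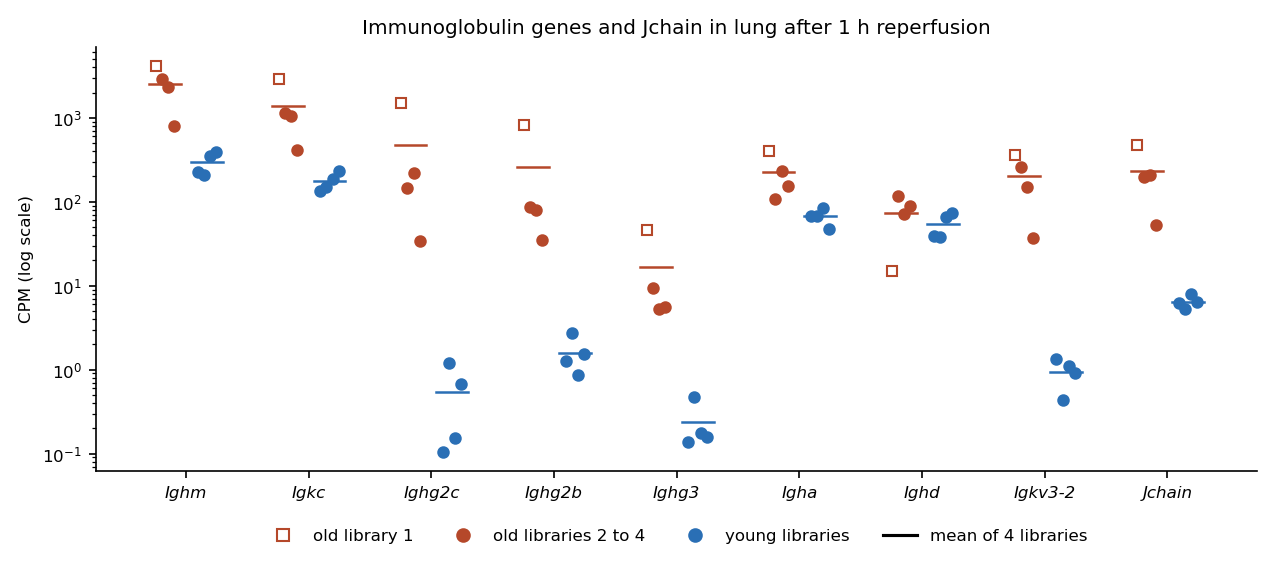
CPM on a log scale (y axis) of immunoglobulin constant regions, 1 kappa variable segment and Jchain (x axis) in each 1 h library; open squares are old library 1, red points old libraries 2 to 4, blue points young libraries, and bars are means of 4 libraries. Old and young points are separate for every gene shown except Ighd, and the gap is widest for Ighg2c, from 33.9 to 1499 CPM in old and from 0.104 to 1.21 CPM in young libraries.

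Most variable segments tested were higher in old lung, under the same limits of the filter and of shared libraries. Of the tested heavy chain variable segments 65 of 83 were higher in old lung, and of the kappa variable segments 69 of 83 (67 and 64 with the trend removed); variable segments are alike in sequence, and reads may be split between them. Igkv3-2 was the most used kappa segment in each of the 4 old libraries, with 17.2%, 30.8%, 19.5% and 12.2% of kappa variable counts. Igkv10-96 or Igkv6-15 led in the young libraries, with 5.96% to 11.9%. In old sham lung Igkv3-2 led in 2 of 4 libraries. Igkv3-2 itself was 363, 261, 151 and 37.0 CPM in old and 1.35, 0.439, 1.09 and 0.914 CPM in young reperfused lung (difference 7.72, FDR = 0.00041). Without old library 1, 120 immunoglobulin segments were called higher (median 2.32). T cell receptor segments were called higher in 4 of 22 cases and lower in 0, against 20.5% and 21.5% of all genes.

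Immunoglobulin transcripts made up 0.664% ± 0.483 (SD, n = 4) of counts in old and 0.0697% ± 0.0183 in young reperfused lung (exact permutation p = 0.0286, two-sided, the smallest that 4 against 4 allow). The age difference was present without reperfusion too. In sham lung the shares were 0.351% and 0.0564%, and 31 of the 192 segments were higher in old lung (median 2.32), against 1.09% of all genes. The limits of the low-count filter and of shared libraries hold for this count and median too. As fitted, the difference between ages at 1 h departed from that in sham for 2 segments, against 17.5% of all genes. That share of all genes was 5.73% with the GC trend removed. Segments with few reads in young lung carry wide errors, so few calls do not show that the differences at 1 h and in sham were alike. Of the 17 plasma cell and immunoglobulin genes listed, 9 were higher and 1 lower at 1 h (median 1.58), and 10 and 0 with the trend removed. The summed level of that list was 2107 to 11492 CPM in old and 1017 to 1285 CPM in young libraries. Mzb1, a chaperone of antibody assembly, rose by 1.70 (FDR = 0.0054), from 4.18 to 5.19 CPM in young to 7.56 to 19.6 CPM in old libraries. Sdc1, a plasma cell surface proteoglycan that lung epithelium also makes, was the member that fell, by 0.51 on the log2 scale (FDR = 0.0015), and was not called with the GC trend removed (-0.23, FDR = 0.12).

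Cxcl13, the chemokine that draws B cells into lymphoid follicles, was 17.6, 7.90, 15.0 and 6.62 CPM in old and 2.15, 0.840, 1.17 and 0.874 CPM in young libraries. It differed by 3.22 ± 0.47 (FDR = 2.2e-05), without overlap. B cell markers were less uniform. Of 14 markers 4 were higher and 0 lower in both fits (median 0.49 as fitted), against 20.5% and 21.5% of all genes as fitted. The count was 8 without old library 1 and 2 without old library 2, and 11 and 0 in the same order with the trend removed, where it was also 1 without young library 1 and 2 without young library 2. Ms4a1, which encodes CD20, was 15.3, 62.1, 43.0 and 44.8 CPM in old and 10.6, 10.9, 18.1 and 11.4 CPM in young libraries, so old library 1 lay within the young range (difference 1.69 ± 0.42, FDR = 0.0027). Old library 1, which held the most IgG, had the lowest summed B cell marker level of the old group, 275 CPM against 1172 CPM in the highest.

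Neutrophil transcripts were higher in old reperfused lung. Of 20 markers 13 were higher and 0 lower (median 1.30, against 0.02 over all genes), and 11 with the GC trend removed. Of all genes 20.5% were higher as fitted and 16.4% with the trend removed. The count rested in part on old library 1: without it 6 were higher (5 with the trend removed), and 8 without young library 1 or young library 2 (8 and 6 with the trend removed). Csf3r, the receptor for granulocyte colony-stimulating factor, was 755, 382, 443 and 684 CPM in old and 143, 115, 222 and 298 CPM in young libraries. Every old library exceeded every young one, and the difference was 1.54 ± 0.30 (FDR = 0.00031). Cxcr2, the receptor for neutrophil-attracting chemokines, was 277, 93.7, 124 and 176 CPM against 50.7, 39.2, 58.3 and 76.4 CPM (1.58, FDR = 0.0018). Fpr2, a formyl peptide receptor, rose by 1.93 (FDR = 0.00069).

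Granule genes did not follow these receptors evenly. S100a9, the abundant calprotectin subunit, was 3151, 633, 856 and 1261 CPM in old and 479, 457, 807 and 1054 CPM in young libraries. The groups overlapped and the difference did not pass (1.08, FDR = 0.12; 0.40, FDR = 0.58 without old library 1). Ngp, a granule protein of immature neutrophils, was 384 CPM in old library 1 and 2.99, 5.14 and 6.59 CPM in the other old libraries, beside 2.81 to 4.97 CPM in young lung. Its difference was 4.76 (FDR = 0.015) with that library and 0.43 (FDR = 0.79) without it. The summed neutrophil marker level was 9882 CPM in old library 1, 2728 to 4898 CPM in the other old libraries and 1611 to 3304 CPM in young libraries. In sham lung 0 of 20 neutrophil markers passed the test (median 0.65). The interaction of age with reperfusion was called higher for 2 as fitted and for 0 with the trend removed, against 8.07% and 2.31% of all genes.

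Monocyte and recruited macrophage markers were mixed, with 6 higher and 2 lower of 21 (8 and 0 with the GC trend removed). Without old library 1 they were 4 higher and 2 lower as fitted, and 4 and 1 with the trend removed. The summed level of this list was 3387 to 4585 CPM in old and 4263 to 4751 CPM in young libraries. Only old library 1 lay within the young range. Ccr2 and C1qa, named next, are among the members that rose. Ccr2, the receptor that brings monocytes into tissue, was 109, 44.9, 39.5 and 53.7 CPM in old and 13, 23.6, 20.5 and 12.4 CPM in young libraries (1.83 ± 0.35, FDR = 0.00029). C1qa, a complement C1q chain made by macrophages, rose by 1.25 (FDR = 0.0013). Resident alveolar macrophage markers showed no common direction (2 higher and 4 lower of 18, and 3 and 3 with the trend removed). Dendritic cell markers were higher in 3 of 13 cases, and in 1 with the trend removed. Beside the counts of these 3 lists, 20.5% of all genes were higher and 21.5% lower as fitted. With the trend removed it was 16.4% each.

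Of 25 T and NK cell markers 12 were higher and 1 lower in old reperfused lung (median 0.57), and 10 and 2 with the GC trend removed. The shares of all genes as fitted were 20.5% and 21.5%. In sham lung 1 marker was higher and 6 lower (median -0.03). The interaction was called higher for 5 and lower for 0 as fitted, and for 4 and 0 with the trend removed. Of all genes 8.07% and 9.46% were so called as fitted, and 2.31% and 3.42% with the trend removed. Cd28, the costimulatory receptor, was 21.5, 18.6, 19.2 and 16.2 CPM in old and 6.49, 4.09, 4.41 and 7.27 CPM in young libraries. The lowest old library exceeded the highest young one by more than the spread within either group (1.76 ± 0.24, FDR = 7.6e-06). Eomes, a transcription factor of effector and memory T cells, rose by 1.18 ± 0.24 (FDR = 0.00055). Ctla4, an inhibitory receptor, was 21.5, 10.4, 12.0 and 10.6 CPM against 2.84, 3.8, 3.70 and 3.58 CPM (1.97, FDR = 0.00095). Pdcd1, which encodes the inhibitory receptor PD-1, rose by 1.74 (FDR = 0.0012; 1.11, FDR = 0.011 without old library 1). Cd8a rose by 0.87 (FDR = 0.0025), with young library 4 inside the old range.

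Gzmk, the granzyme known for marking T cells that accumulate with age in mice, was 8.43, 2.52, 4.68 and 1.32 CPM in old libraries and 0.146 CPM in young library 2, and was 0 in the other young libraries. The summed counts were 502 and 4. The fitted difference was 6.82 (FDR = 5.3e-05), and 10.16 (FDR = 0.00016) without young library 2, where the fitted value depends on how a group at 0 is treated. Lef1, a transcription factor of naive T cells, was 11.1, 9.80, 11.9 and 11.3 CPM in old and 20.1, 14.0, 17.4 and 27.3 CPM in young libraries and fell by 0.84 on the log2 scale (FDR = 0.0028). Sham lung showed the Lef1 difference as well (-1.07, FDR = 0.0070). Cd28 differed by 0.05 (FDR = 0.97) in sham lung, and the interaction for Cd28 was 1.72 (FDR = 0.0017; FDR = 0.022 with the trend removed). Klrb1c, an NK cell receptor, was lower in old sham lung (-1.15, FDR = 0.0020) and did not pass at 1 h (-0.23, FDR = 0.34), and the difference between these was 0.92 (FDR = 0.021; FDR = 0.088 with the trend removed).

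**Figure D3:**
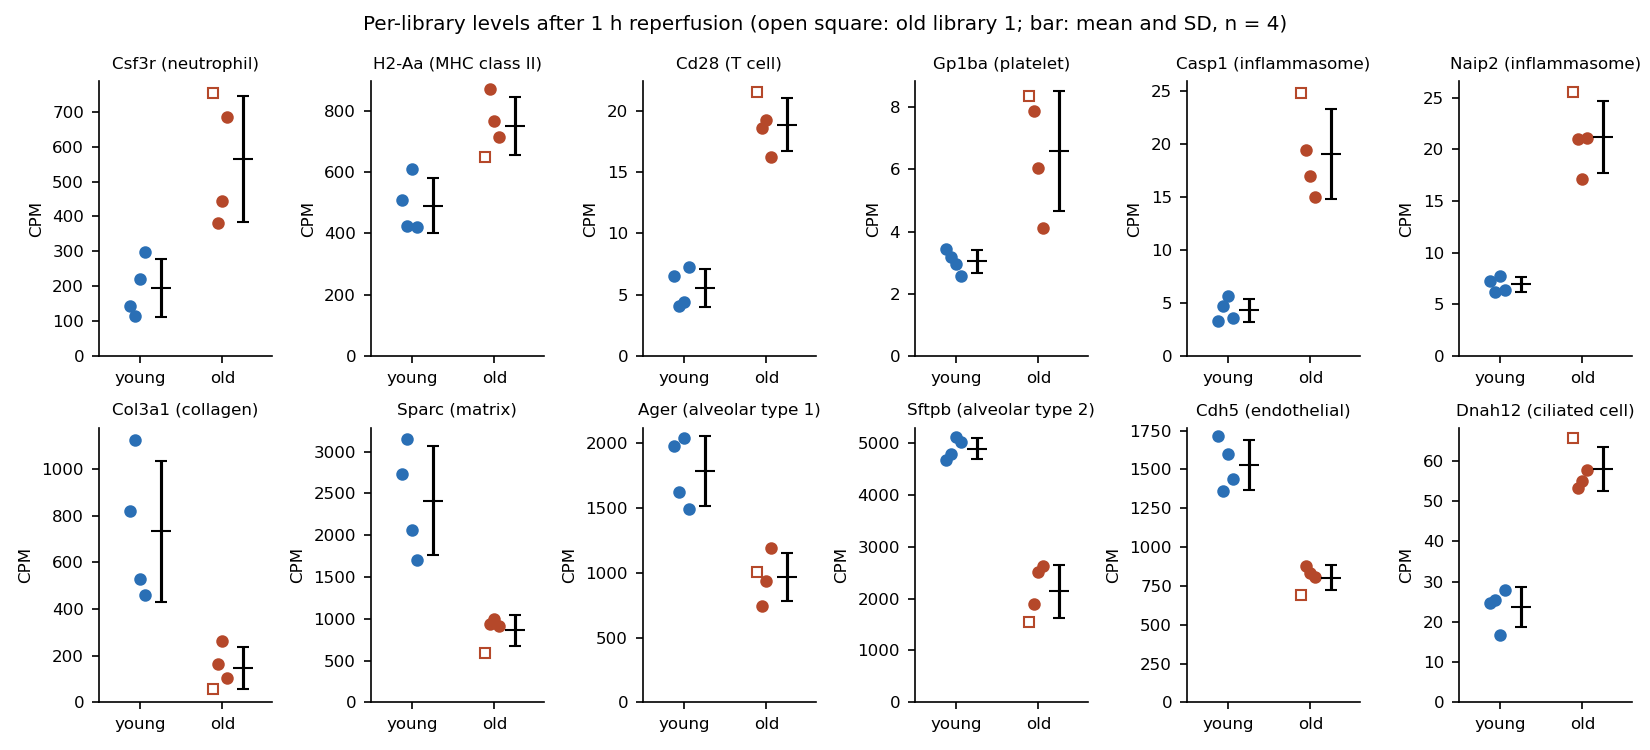
CPM (y axis, from 0) of 12 genes in young (blue) and old (red) 1 h libraries; open squares are old library 1, and bars give the mean and SD of 4 libraries. Old points lie above young points for Csf3r, H2-Aa, Cd28, Gp1ba, Casp1, Naip2 and Dnah12 and below them for Col3a1, Sparc, Ager, Sftpb and Cdh5.

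Platelet and megakaryocyte transcripts were higher in old lung, and red cell genes were not called. Of 8 platelet genes 7 were higher at 1 h (6 with the GC trend removed), with a median of 0.90, and 7 of 8 were higher in sham lung, with a median of 1.24. Itga2b, the platelet integrin subunit that binds fibrinogen, was 57.1, 42.3, 41.3 and 42.8 CPM in old and 29.6, 26.0, 31.7 and 23.8 CPM in young libraries (0.72 ± 0.15, FDR = 0.00054). Gp1ba, the platelet receptor for von Willebrand factor, was 8.36, 7.87, 6.03 and 4.12 CPM against 3.43, 3.18, 2.97 and 2.58 CPM (1.11 ± 0.23, FDR = 0.00059). Treml1, a receptor of platelet granules, rose by 1.09 (FDR = 0.0022). Pf4, platelet factor 4, did not pass (0.66, FDR = 0.078). Of 7 red cell genes 0 passed, and Hbb-bs, a beta globin, was 1487 to 2018 CPM in old and 818 to 1546 CPM in young libraries (0.43, FDR = 0.38). 

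MHC class II genes, which present antigen to CD4+ T cells, were moderately higher in old lung. They are known to be switched on together by the coactivator CIITA through promoters that carry an NF-Y site, called the Y box. The 150 bases before the start site are shown for 3 class II genes called at 1 h (RefSeq, GRCm38.p6), with the match to TGATTGG in capitals.
H2-Aa: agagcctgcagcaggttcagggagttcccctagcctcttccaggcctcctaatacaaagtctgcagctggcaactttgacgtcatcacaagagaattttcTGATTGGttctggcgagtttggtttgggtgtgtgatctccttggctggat
H2-Eb1: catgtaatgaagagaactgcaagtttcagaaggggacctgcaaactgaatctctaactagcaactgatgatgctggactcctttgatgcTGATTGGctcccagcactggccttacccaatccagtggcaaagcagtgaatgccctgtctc
H2-DMb1: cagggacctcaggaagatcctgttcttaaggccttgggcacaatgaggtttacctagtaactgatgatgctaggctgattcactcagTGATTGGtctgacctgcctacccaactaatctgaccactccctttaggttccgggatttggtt
They lie at chr17:34287824-34287973 on the minus strand, chr17:34305717-34305866 on the plus strand and chr17:34153041-34153190 on the plus strand, in that order, all directly upstream of the annotated transcripts. TGATTGG was searched on both strands and includes ATTGG, the reverse complement of CCAAT. It began 50, 61 and 63 bases before the start site, on the strand of the gene. The same letters occur in 2568 of 32851 RefSeq promoters (7.82%) within 250 bases before to 50 after the start. A match is a description of the sequence and not a site of binding.

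Of 17 MHC class II and antigen presentation genes 7 were higher and 0 lower at 1 h (median 0.40), and 9 with the GC trend removed (5 without young library 4). H2-Aa, the alpha chain of I-A, was 650, 872, 765 and 713 CPM in old and 508, 424, 609 and 422 CPM in young libraries. The groups did not overlap, and the difference was 0.61 ± 0.16 (FDR = 0.0035). H2-DMb1, a chain of the peptide-loading factor H2-M, was 70.4, 89.98, 84.7 and 87.2 CPM against 49.6, 38.2, 58.5 and 39.1 CPM (0.84 ± 0.19, FDR = 0.0011). H2-Eb1, the beta chain of I-E, rose by 0.42 (FDR = 0.042). Cd74, the invariant chain, rose by 0.40 (FDR = 0.029). The H2-Eb1 and Cd74 calls were each lost (FDR = 0.050 to 0.14) without any 1 of old libraries 2 to 4 or young libraries 1, 2 and 4. Ciita itself did not pass (0.67, FDR = 0.069), and passed with the GC trend removed (0.95, FDR = 0.013) and without old library 1 (0.83, FDR = 0.032). In sham lung 6 of the 17 were higher (median 0.60), and 0 of 17 interactions were called as fitted, against 17.5% of all genes.

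Casp1, Naip2 and Sp140, which form no list and were picked after their values were seen, were higher in old lung at 1 h and in sham. Casp1, the protease that cleaves pro-interleukin-1 beta and gasdermin D, was 24.8, 19.4, 17.0 and 15.0 CPM in old and 3.33, 4.68, 5.68 and 3.58 CPM in young libraries. The groups were far apart (2.14 ± 0.19, FDR = 9.8e-08; 1.70 with the GC trend removed). In sham lung Casp1 was higher by 0.96 (FDR = 0.0048), and the larger difference at 1 h passed as an interaction as fitted (1.18, FDR = 0.0035) and not with the trend removed (FDR = 0.061). Naip2, a sensor of bacterial secretion proteins with near-identical paralogs that could share its reads, was 25.6, 21, 17.1 and 21.1 CPM against 7.29, 6.21, 7.78 and 6.40 CPM (1.61 ± 0.16, FDR = 4.8e-07; sham 1.06, FDR = 0.00094). Sp140, a nuclear body protein of leukocytes, rose by 1.21 ± 0.11 (FDR = 2.2e-07), against 0.56 (FDR = 0.0087) in sham, and this interaction passed in both fits (FDR = 0.0079 and 0.029).

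Extracellular matrix genes were lower in old lung. Collagen genes had the lowest median of the 43 lists: 11 of 16 were lower and 1 higher (median -1.39, against 0.02 over all genes), and 10 and 0 with the GC trend removed (median -1.02). Col3a1, the type III collagen chain of fibroblasts, was 58.1, 166, 264 and 105 CPM in old and 821, 1122, 529 and 460 CPM in young libraries. The highest old library stayed below the lowest young one, and the fall was 2.31 on the log2 scale (SE 0.41, FDR = 0.00015). Col1a1, the main fibrillar collagen chain, was 80.8, 285, 376 and 211 CPM against 808, 1227, 645 and 758 CPM (-1.85, FDR = 0.00049). Col4a1, a basement membrane collagen, was 535, 752, 943 and 626 CPM against 2385, 2091, 1686 and 1347 CPM (-1.39, FDR = 2.6e-06). In each of these 3 genes old library 1 was the lowest of all 8.

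Of the other matrix and fibroblast genes, 16 of 24 were lower and 0 higher (median -0.89), and 14 with the GC trend removed. Sparc, a collagen-binding matrix protein, was 592, 938, 995 and 917 CPM in old and 2734, 3153.5, 2061 and 1705 CPM in young libraries (-1.49 ± 0.18, FDR = 2.0e-06). Loxl1, an elastin cross-linking enzyme, fell by 1.48 on the log2 scale (FDR = 3.7e-05), and Mmp2, a gelatinase, by 1.67 (FDR = 3.5e-05). Matrix genes were lower in old sham lung too: 9 of 16 collagen genes and 7 of 24 other matrix genes were called lower, with medians of -0.98 and -0.72. The interaction was called for 0 collagen genes and for 1 other matrix gene, Loxl1, as fitted (-0.96, FDR = 0.042) and for 0 with the trend removed. Of all genes 17.5% were so called as fitted and 5.73% with the trend removed. The summed collagen level was 1851 to 3755 CPM in old and 6116 to 9635 CPM in young libraries.

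The largest falls outside collagens included genes of other functions. Prdm8, a member of the PR-domain family of transcriptional regulators, was 1.28, 1.68, 0.688 and 1.54 CPM against 6.87, 5.34, 6.26 and 7.63 CPM (-2.32, FDR = 5.1e-06; sham -2.21, FDR = 0.00030). Thbs3, a thrombospondin, fell by 1.84 (FDR = 5.1e-08) at 1 h and by 0.99 (FDR = 0.00069) in sham. Sprr1a, a cornified envelope protein made by injured epithelium, was 1.74 to 5.35 CPM in old and 8.39 to 33.6 CPM in young libraries (-2.46, FDR = 0.00048; sham -0.91, FDR = 0.60). Erdr1, at the pseudoautosomal end of the X chromosome, was 0, 110, 86.9 and 47.0 CPM in old and 436, 452, 247 and 701 CPM in young libraries (-2.91, FDR = 0.0089). With 1 old library at 0, its fold change is uncertain.

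Some falls were seen at 1 h and not called in sham. Matn4, a matrilin of the matrix, was 31.8, 30.7, 41.2 and 41.3 CPM in old and 125, 128, 129 and 111 CPM in young libraries (-1.77 ± 0.13, FDR = 2.5e-08). Its sham difference was -0.35 (FDR = 0.20), and the interaction was -1.42 (FDR = 0.00016; FDR = 0.00069 with the trend removed). Lyz1, a lysozyme gene whose reads may be shared with its near-identical neighbour Lyz2, was 99.2 to 159 CPM in old and 354 to 467 CPM in young libraries (interaction -1.42, FDR = 0.018; FDR = 0.037 with the trend removed). Prmt2, a protein arginine methyltransferase, was 34.8 to 40.3 CPM in old and 83.9 to 90.3 CPM in young libraries (interaction -1.26, FDR = 6.8e-05). In the other direction, Ppp1r2-ps1, a pseudogene of a protein phosphatase inhibitor that may share reads with its parent gene, was 4.92 to 5.88 CPM in old and 0.358 to 1.04 CPM in young libraries (interaction 2.91, FDR = 7.2e-05).

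Markers of alveolar epithelium and endothelium were lower in old than in young lung after reperfusion. Of 17 alveolar type 1 markers 13 were lower and 0 higher (median -0.69), and 14 with the GC trend removed (median -0.53). In sham lung 0 were lower and 1 higher. Ager, the receptor for advanced glycation end products and a defining type 1 gene, was 1002.9, 746, 934 and 1189.9 CPM in old and 1979, 1623, 2038 and 1491.5 CPM in young libraries. The ranges did not overlap (-0.88 ± 0.14, FDR = 3.6e-05), whereas the sham difference was -0.14 (FDR = 0.72). Aqp5, the water channel of type 1 cells, was 175, 168, 183 and 228 CPM against 391, 412, 395 and 310 CPM (-1.0, FDR = 9.9e-06). Cldn18, a tight junction claudin, fell by 0.97 on the log2 scale (FDR = 3.9e-06), and by 1.00 with the trend removed. Cav1, the caveolar coat protein, fell by 0.42 (FDR = 0.0012), and by 0.76 with the trend removed.

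Type 1 interactions were called for 8 of 17 genes as fitted and 4 of 17 with the trend removed, all lower, against 9.46% and 3.42% of all genes. The Cldn18 interaction was called in both fits (-0.67, FDR = 0.011 and 0.021), those of Ager (-0.74, FDR = 0.012) and Aqp5 (-0.90, FDR = 0.0036) only as fitted (FDR = 0.27 and 0.17 with the trend removed), and that of Cav1 only with the trend removed (FDR = 0.011). Of 17 type 2 markers 8 were lower and 0 higher (median -0.50; 7 with the trend removed, and 5 as fitted without young library 3). Sftpb, a surfactant protein, was 1547, 1893, 2512 and 2621 CPM in old and 4659, 4781, 5106 and 5006 CPM in young libraries (-1.19 ± 0.19, FDR = 4.2e-05). Abca3, the lipid transporter of lamellar bodies, fell by 1.01 (FDR = 0.00022). Sftpc fell by 0.92 (FDR = 0.00029). Type 2 markers held 0 calls in sham, and 2 of 17 interactions were called, Sftpb and Abca3, with 0 after the trend was removed.

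Endothelial markers were lower in 14 of 22 cases and higher in 2 (median -0.58), and in 15 and 0 with the GC trend removed. Cdh5, which encodes VE-cadherin, was 693, 880, 834 and 806 CPM in old and 1716, 1361, 1600 and 1436 CPM in young libraries (-0.93 ± 0.13, FDR = 1.4e-05). Tie1, an endothelial receptor kinase, was 317, 258, 258 and 241 CPM against 585, 517, 540 and 500 CPM (-1.0, FDR = 1.5e-06). Aplnr, the apelin receptor of capillaries, was 11.6, 19.1, 27.9 and 16.6 CPM against 91.3, 61.4, 94.4 and 43.5 CPM (-1.95, FDR = 1.7e-05) and was the member called lower in sham (-1.32, FDR = 0.011). Car4, a carbonic anhydrase of lung capillaries, fell by 0.72 (FDR = 1.1e-06), with an interaction called in both fits (-0.54, FDR = 0.0029 and 0.023). Of the 22 endothelial interactions 9 were called lower and 1 higher as fitted, against 9.46% and 8.07% of all genes. With the trend removed 2 were lower and 0 higher, against 3.42% and 2.31%. The summed endothelial level was 5303 to 5721 CPM in old and 7459 to 8701 CPM in young libraries. The type 1, type 2 and endothelial falls stood beside the rises of leukocyte genes in the same libraries, and the part of cell mixture in them was not tested.

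Ciliated, airway and mesothelial lists differed in direction and are read against the 20.5% of all genes higher and 21.5% lower. Ciliated cell markers were higher in 6 of 16 cases and lower in 0 (median 0.50; 7 with the trend removed, and 2 to 9 in fits with the trend removed that each left out 1 library). Dnah12, an axonemal dynein heavy chain, was 65.7, 53.2, 55.1 and 57.8 CPM in old and 24.6, 25.5, 16.7 and 28.0 CPM in young libraries (1.29 ± 0.21, FDR = 4.8e-05). Club and secretory airway markers were lower in 2 of 15 cases and in 0 with the trend removed. Of 12 mesothelial genes 3 were lower and 1 higher (2 and 0 with the trend removed), with a summed level of 571 to 698 CPM in old and 918 to 1196 CPM in young libraries. Krt7, a keratin that alveolar and airway epithelium also make, was 185 to 239 CPM in old and 398 to 477 CPM in young libraries (-1.07, FDR = 3.0e-07; interaction -0.99, FDR = 0.00039 and 0.0037 with the trend removed). Lymphatic endothelial markers were higher in 3 and lower in 2 of 9 cases, and in 1 and 1 with the trend removed.

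**Figure D4:**
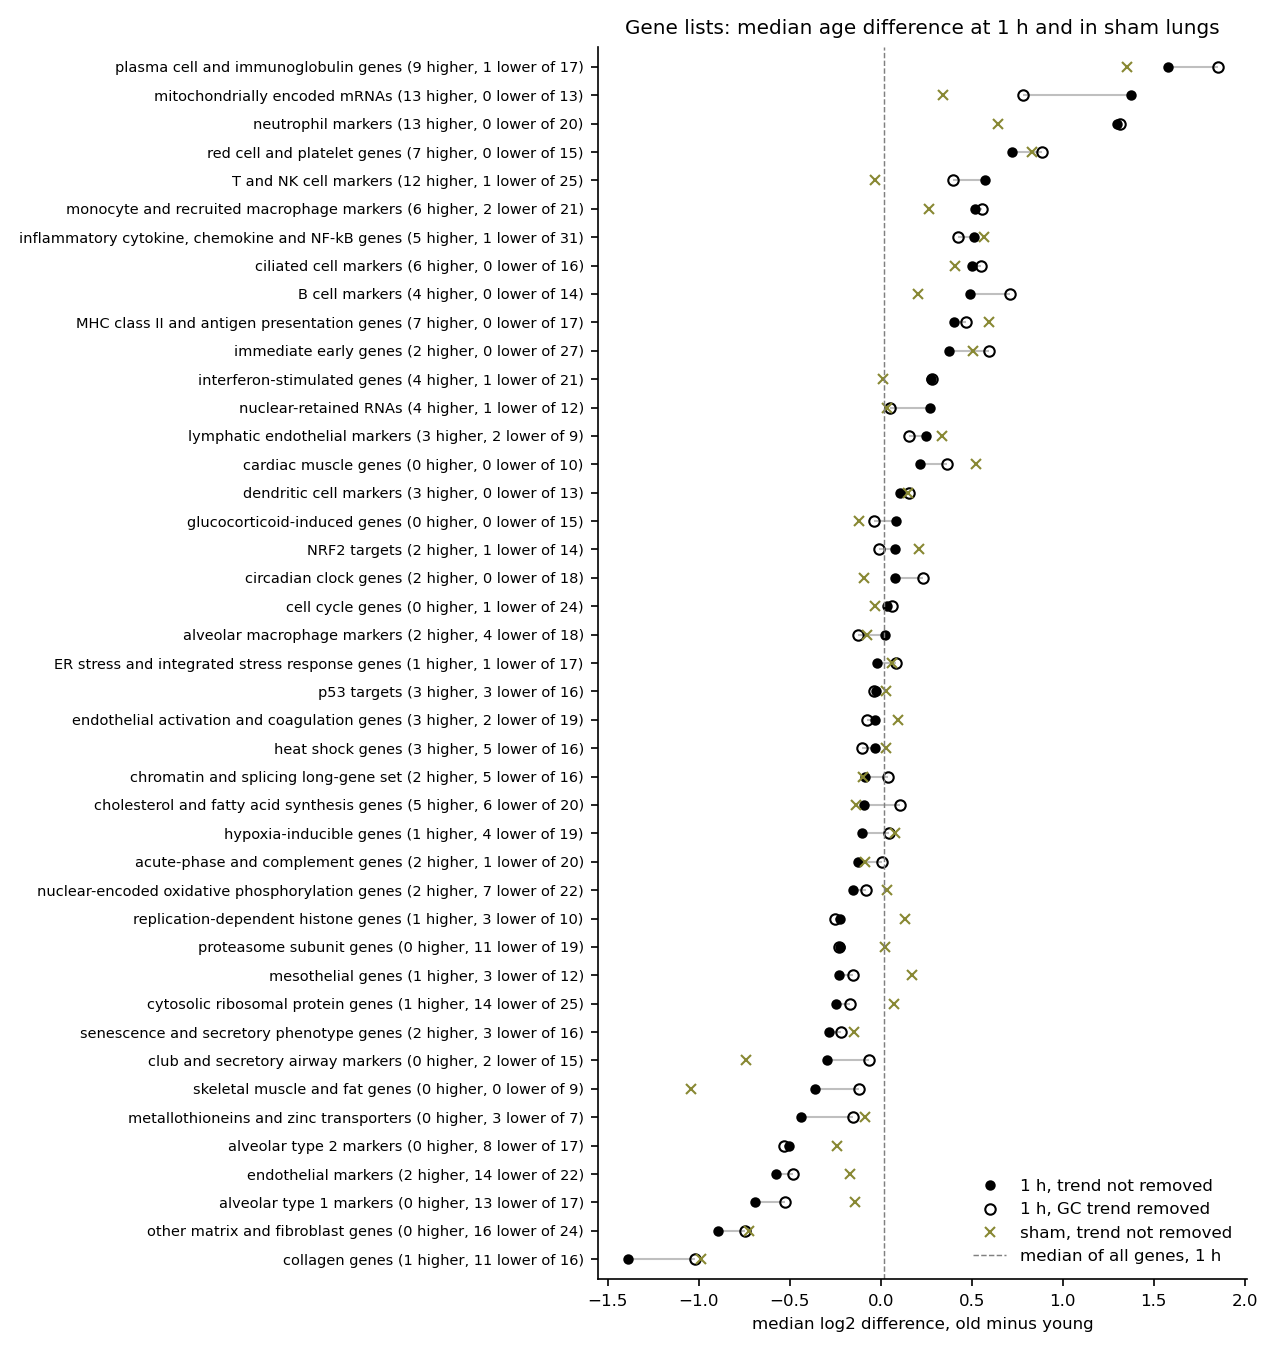
Median log2 difference of old minus young (x axis) over the tested members of each gene list (y axis, with the number called higher and lower at 1 h); filled circles are 1 h as fitted, open circles 1 h with the GC trend removed, crosses sham lung, and the dashed line is the median of all genes at 1 h. Plasma cell (1.58) and mitochondrial (1.38) lists lie at the top and collagens (-1.39) at the bottom, where the sham median also lies low (-0.98).

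Few early response genes passed the test of age. Of 27 immediate early genes 2 were higher and 0 lower in old lung (4 higher without young library 4), against 20.5% and 21.5% of all genes. With the GC trend removed 5 were higher, a count that was 1 without old library 4, 2 without old library 2, young library 1 or young library 2, and 3 without young library 3. Fos was 920, 1249, 1212 and 1794 CPM in old and 1209, 1076, 895 and 1505 CPM in young libraries, which overlapped (0.14, FDR = 0.89). Atf3, a stress-induced partner of the AP-1 factors, was 801 to 1383 CPM in old and 881 to 1427 CPM in young libraries (0.09, FDR = 0.92). Klf6, a Kruppel-like factor, was the early gene with the smallest p, at 646, 875, 800 and 958 CPM in old and 492, 437, 425 and 493 CPM in young libraries (0.83 ± 0.15, FDR = 0.00014). These p-values do not show that Fos and Atf3 were alike, since their SE of 0.69 and 0.55 allow differences of that size. The SE rest on a spread estimated over all 24 libraries, not on the 8 compared here alone. Ranges of old and young libraries did not overlap for 4 of the 27 early genes, against 39.4% of all genes.

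Inflammatory cytokine, chemokine and NF-kB genes were higher in 5 of 31 cases and lower in 1 (2 and 0 without old library 1, and 3 higher without young library 1 or 2), and in 3 and 0 with the trend removed. Il6 was 85.7, 114, 138 and 116 CPM in old and 70.5, 47.3, 88.9 and 39.4 CPM in young libraries, which overlapped at 1 old and 1 young library (0.88, FDR = 0.37). Cxcl1, a neutrophil chemokine, was 67.6 to 96.5 CPM in old and 32.3 to 87.1 CPM in young libraries (0.57, FDR = 0.52). Cxcl13, described above, was the member with the smallest p. Interferon-stimulated genes were higher in 4 of 21 cases and lower in 1, and in 1 and 1 with the trend removed. As fitted, 1 was higher without old library 1, old library 3 or young library 4, and 2 without young library 1, 2 or 3. Both lists are read against the 20.5% of all genes higher and 21.5% lower as fitted. With the trend removed these shares were 16.4% each.

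Heat shock genes, which refold damaged proteins, were higher in 3 and lower in 5 of 16 cases as fitted, against 20.5% and 21.5% of all genes. With the GC trend removed they were higher in 2 and lower in 1, against 16.4% each. Hspa1a was 1316, 1990, 1515 and 1019 CPM in old and 3017, 1866, 2096 and 3411 CPM in young libraries. The ranges overlapped, and the fall of 0.83 on the log2 scale (FDR = 0.018) was not called with the trend removed (-0.44, FDR = 0.22), without old library 4 (-0.69, FDR = 0.065) or without young library 4 (-0.67, FDR = 0.069). Hspa1b, its near-identical neighbour with which reads can be shared, fell by 0.92 (FDR = 0.012; -0.55, FDR = 0.14 with the trend removed). Hspa8, the constitutive HSC70, fell in both fits (-0.51, FDR = 0.0061; -0.65, FDR = 0.0018), from 1902 to 2615 CPM in young to 1419 to 1871 CPM in old libraries. Dnajb4, an HSP40 cochaperone, rose in both fits (0.77, FDR = 0.00041; 0.38, FDR = 0.024).

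Other stress and hormone lists are read against the 20.5% of all genes higher and 21.5% lower. Hypoxia-inducible genes were higher in 1 and lower in 4 of 19 cases, and in 3 and 4 with the trend removed. Vegfa, the vascular growth factor that type 1 cells also make, was 560, 633, 614 and 777 CPM in old and 869 to 1010.3 CPM in young libraries, with no overlap (-0.55 ± 0.11, FDR = 0.00054; -0.42 with the trend removed). NRF2 targets were higher in 2 and lower in 1 of 14 cases, and Hmox1, heme oxygenase 1, did not pass, at 79.8 to 110 CPM in old and 96.2 to 151 CPM in young libraries (-0.24, FDR = 0.48). Counts of higher and lower genes were 0 and 3 of 7 metallothioneins and zinc transporters (0 and 2 with the trend removed), 1 and 1 of 17 ER stress and integrated stress response genes (4 and 1), and 3 and 2 of 19 endothelial activation and coagulation genes (2 and 1). Glucocorticoid-induced genes had 0 of 15 called (1 higher with the trend removed), circadian clock genes 2 higher of 18 (2 and 1), and acute-phase and complement genes 2 higher and 1 lower of 20 (3 and 0). Leaving out 1 library at a time moved the NRF2 counts between 1 and 4 higher and 0 and 3 lower, and the circadian count between 1 and 4 higher.

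Of 16 senescence and secretory phenotype genes 2 were higher and 3 lower, against 20.5% and 21.5% of all genes. With the trend removed the counts were 1 and 2. As fitted the lower count was 1 without young library 1 and 5 without old library 3, and the higher count was 1 without old library 1, old library 4 or any of young libraries 2 to 4. Cdkn2a, which encodes the senescence marker p16, was 0.356, 0.715, 1.41 and 0.322 CPM in old and 0.659, 0.329, 0.811 and 0.397 CPM in young libraries. Its levels were low and overlapped (0.33, FDR = 0.64). Cdkn1a, which encodes p21, was 234, 250, 501 and 286 CPM against 598, 330, 498 and 475 CPM and did not pass (-0.58, FDR = 0.12), but fell without old library 3 (-0.88, FDR = 0.023). Of 16 p53 targets 3 were higher and 3 lower (3 and 0 with the trend removed), and Ccng1, cyclin G1, rose by 0.92 (FDR = 4.1e-06; 0.45, FDR = 0.0020 with the trend removed). Cell cycle genes were lower in 1 of 24 cases, and replication-dependent histone genes, whose mRNAs lack a poly(A) tail, were higher in 1 and lower in 3 of 10 (1 and 2 with the trend removed).

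Mitochondrially encoded mRNAs were higher in old reperfused lung: 13 of 13 as fitted (median 1.38) and 12 of 13 with the GC trend removed (median 0.78). ND2, a complex I subunit, was 2267, 3116, 2559 and 2380 CPM in old and 620, 427, 529 and 304 CPM in young libraries. Young library 4, the one with the steepest GC trend, was the lowest (2.46 ± 0.29, FDR = 1.9e-06; 1.66 with the trend removed). COX1, a complex IV subunit, was 11064.6, 14222.1, 11771.1 and 10376.5 CPM against 6053, 5853, 5369 and 4483 CPM (1.12, FDR = 2.5e-06; 0.59 with the trend removed). ND1 rose by 1.85 (FDR = 2.3e-06; 1.18 with the trend removed). COX3 rose by 0.68 (FDR = 0.00052) and was the member not called with the trend removed (0.08, FDR = 0.59). ATP8 (3.29) and ND6 (4.04) had the largest differences, but ATP8 overlaps ATP6 and ND6 lies antisense to other mitochondrial genes, and the strand used in counting is not stated.

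The mitochondrial share of counts was 3.53% ± 0.507 (SD, n = 4) in old and 1.33% ± 0.189 in young reperfused lung (exact permutation p = 0.0286, two-sided, the smallest possible). In sham lung it was 3.71% and 2.86%, and 0 of the 13 mRNAs passed. The interaction was called higher for 11 of 13 as fitted and 5 of 13 with the trend removed, against 8.07% and 2.31% of all genes. ND1 (1.61, FDR = 0.0017 and 0.013) and ND2 (2.13, FDR = 0.0013 and 0.0076) were called in both. Mitochondrial mRNAs are GC-poor, and the GC trend of the young 1 h libraries moves with this result; its part beyond the fit with the trend removed was not tested. Nuclear-encoded oxidative phosphorylation genes did not rise with them, at 2 higher and 7 lower of 22 (2 and 8 with the trend removed). Cox4i1, a nuclear-encoded complex IV subunit, was 209, 197, 204 and 196 CPM in old and 310, 342, 263 and 345 CPM in young libraries (-0.65, FDR = 1.4e-05; -0.28, FDR = 0.0052 with the trend removed).

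Genes of protein synthesis and degradation were lower. Cytosolic ribosomal protein genes were lower in 14 and higher in 1 of 25 cases (median -0.24; 12 and 2 with the trend removed), and proteasome subunit genes in 11 and 0 of 19 (median -0.22; 12 with the trend removed). Rplp1, an acidic protein of the ribosomal stalk, was 508, 420, 456 and 457 CPM in old and 937, 907, 898 and 1253 CPM in young libraries (-1.12 ± 0.13, FDR = 1.9e-06). Psmd4, the proteasome's ubiquitin receptor, was 81.2 to 96.6 CPM in old and 130 to 168 CPM in young libraries (-0.76, FDR = 7.3e-07). In sham lung 0 genes of either list passed. The interaction was called lower for 13 ribosomal and 8 proteasome genes, and for 10 and 7 with the trend removed, including Rplp1 (-1.16, FDR = 0.00054 and 0.0036) and Psmd4 (-0.82, FDR = 0.00027 and 0.0023). Of all genes 9.46% were so called as fitted and 3.42% with the trend removed. Psma2, a core proteasome subunit, was not called as fitted (-0.10, FDR = 0.34) but fell with the trend removed (-0.66, FDR = 2.9e-06) and, as fitted, without young library 4 (-0.18, FDR = 0.044).

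Cholesterol and fatty acid synthesis genes were mixed: of 20, 5 were higher and 6 lower (4 and 4 with the trend removed), against 20.5% and 21.5% of all genes. Srebf1, a transcription factor that drives lipid synthesis genes, was 103, 106, 134 and 137 CPM in old and 182 to 225 CPM in young libraries, with no overlap (-0.74 ± 0.11, FDR = 3.0e-05; -0.37, FDR = 0.0070 with the trend removed). Idi1, isopentenyl diphosphate isomerase, was 69.2, 78.6, 77.9 and 88.6 CPM in old and 38.8, 37.3, 33.8 and 33.6 CPM in young libraries (1.13 ± 0.20, FDR = 0.00014). Hmgcs1, an early enzyme of the cholesterol pathway, was 206 to 248 CPM against 107 to 149 CPM (0.77, FDR = 0.00022). The interactions of Idi1 and Hmgcs1 were called as fitted (Idi1 1.13, FDR = 0.0093; Hmgcs1 0.87, FDR = 0.0060) and not with the trend removed (FDR = 0.086 and 0.11). Nuclear-retained RNAs were higher in 4 and lower in 1 of 12 cases and, with the trend removed, in 1 and 4. A list of long chromatin and splicing genes was higher in 2 and lower in 5 of 16 (0 and 2 with the trend removed).

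Muscle and fat genes varied in level between libraries, and whether tissue next to the lung carried them was not tested. Of 10 cardiac muscle genes, which mouse pulmonary veins also express, 0 passed, and their summed level was 2439.85 to 4799.64 CPM in old and 971 to 4638 CPM in young libraries. Nppa, atrial natriuretic peptide, was 286, 592, 490 and 381 CPM against 16.7, 98.8, 0.152 and 129 CPM and did not pass (2.84, FDR = 0.20). Nppb, the related peptide, was 3.20, 11.6, 12.3 and 7.11 CPM against 0, 0.585, 0.0507 and 0.397 CPM, and was higher at 1 h (5.10, FDR = 0.0012; 5.94, FDR = 0.0022 without young library 2) and in sham (6.61, FDR = 0.028). Of 9 skeletal muscle and fat genes tested 0 passed.

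Sham lung showed far fewer age differences, 214 genes higher (1.09%) and 240 lower (1.22%), and 209 (1.15%) and 267 (1.47%) with the GC trend removed, 2.62% together. Of those called as fitted, most were also called in the same direction at 1 h: 168 of the 214 (78.5%) and 180 of the 240 (75.0%). They made up 4.16% of the higher and 4.25% of the lower calls at 1 h. A call at 1 h and none in sham does not show a difference between them, which the interaction tests directly. As fitted, the interaction was called higher for 1588 genes (8.07%) and lower for 1863 (9.46%). With the GC trend removed it was called for 420 (2.31%) and 620 (3.42%), 5.73% together. Both fits called 340 higher and 414 lower.

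**Figure D5:**
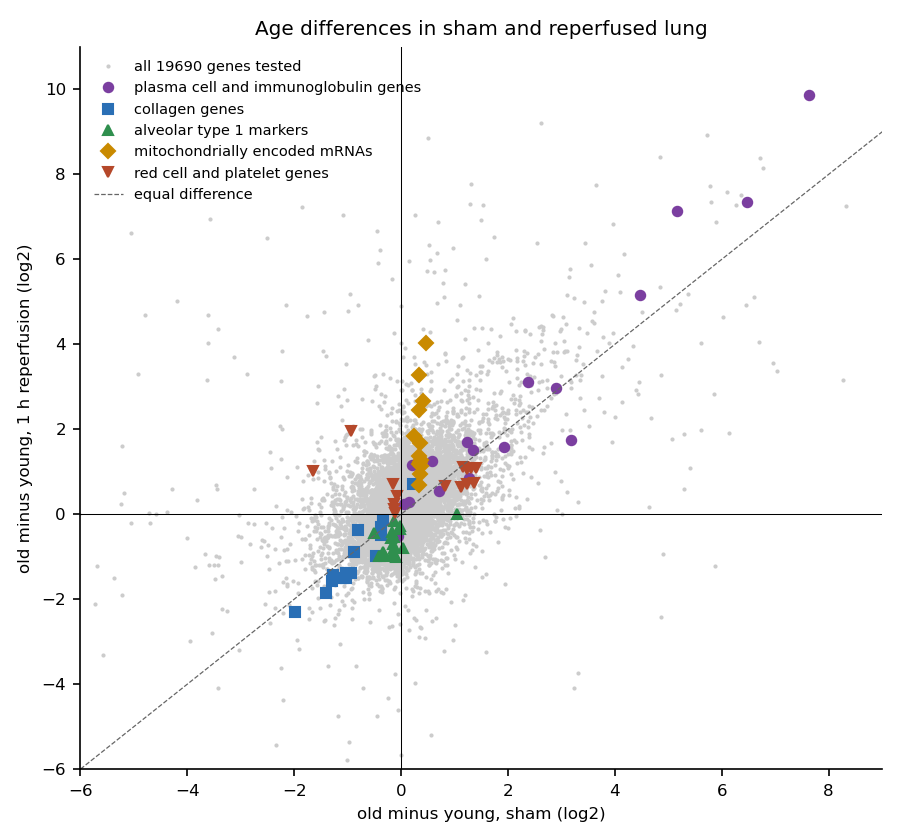
Log2 difference of old minus young in sham lung (x axis) and after 1 h reperfusion (y axis) for each gene tested (grey) and for members of 5 lists (colours); the dashed line marks equal differences, and 39 genes lie beyond the axes. Mitochondrially encoded mRNAs lie at 0.68 to 4.04 at 1 h and above the dashed line (interaction called for 11 of 13 as fitted and 5 with the GC trend removed), and alveolar type 1 markers lie mostly below 0 at 1 h.

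The genes that changed direction with the GC trend included the following 3, and each difference was small. Fundc2, a mitochondrial outer membrane protein, was 30.1, 37.0, 32.4 and 29.9 CPM in old and 27.2, 28.1, 24.9 and 18.6 CPM in young libraries. It was higher as fitted (0.39, FDR = 0.012; 0.28, FDR = 0.055 without young library 4) and lower with the trend removed (-0.42, FDR = 0.00030). Ube2v2, a ubiquitin-conjugating enzyme variant, went from 0.47 (FDR = 0.0042) to -0.39 (FDR = 0.0021). Gga1, an adaptor of trans-Golgi transport, went from -0.23 (FDR = 0.013) to 0.22 (FDR = 0.0020), and the first call was lost without old library 2 (-0.20, FDR = 0.056) or young library 4 (-0.17, FDR = 0.065). Their direction by age is not settled by these data.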

How the data were processed

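Per the labels, sequencing libraries of lung RNA came from a stranded mRNA kit; the strand used in counting is not given in the sources used here. HISAT2, StringTie and the build mm10/GRCm38 are named in the submitters' processing notes, without versions. The deposited table lists 129299 transcripts of 45777 genes. Its read columns hold an estimated count per transcript, made by the authors. This was checked on the low non-zero counts of each library. Of these, 99.27% to 99.77% were the product of FPKM, transcript length and a constant, rounded up. The deposited FPKM were scaled by the authors to transcript length and library total and used only for that check. The TPM, which the authors brought to the same sum in every library, entered 1 alternative. Rounding up adds at most 1 count a transcript, which bears on genes with few reads.

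Counts were summed by gene symbol. The edgeR 4.0.16 rule filterByExpr (minimum count 10) left 19690 genes. TMM factors were 0.880 to 1.09. Means of 6 groups over 24 libraries were estimated by edgeR's quasi-likelihood method in R 4.3.3, with two-sided tests, Benjamini-Hochberg adjustment over all genes and a threshold of 0.05. All 6 groups shared the estimate of each gene's spread. Values without a unit are log2 differences of old minus young, and ± gives the SE. CPM are counts over the TMM-adjusted library total, and libraries are numbered as labelled. The GC trend is a lowess curve (span 0.3) of each library's log2 CPM deviation on the GC content of a gene's longest GENCODE M21 transcript. It was entered as an offset for the 18144 genes (92.1%) that have one. Shares of counts were compared by an exact permutation test (scipy 1.17.1). The common biological coefficient of variation was 23.2%. The fits were tested on simulated counts.

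The 43 gene lists, the genes named and the alternatives were chosen with earlier results of these data known. A naming rule took the largest changes, the list members with the smallest p, the largest interactions, genes that switch direction with the GC trend, and fixed stress genes. It gave 241 genes, of which some are named here; a few are not reported here. Genes outside it (Ngp, S100a9, Pdcd1, Ctla4, Cd8a, Lef1, Klrb1c, Treml1, Pf4, Hbb-bs, Mzb1, H2-Eb1, Ciita, Nppb, Mmp2, Casp1, Naip2, Sp140, Lyz2, Ighm, Ighd, Igha, Igkc, Igkv10-96 and Igkv6-15) were added after their values were seen. Alternatives were removal of GC and length trends, DESeq2 1.42.0, 2 other low-count filters, a replicate block, only the groups compared, limma 3.58.1 on log2(TPM + 1), and each library left out in turn. The last was repeated with the GC trend removed, a step chosen after seeing the data.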

Additional observations from a re-analysis of the deposited data

Results flagged for a closer look

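Among the values by library, 14 of the 212 groups of 4 libraries checked held 1 library set apart from the other 3 by a gap above Dixon's 95% critical value for 4 values; chance alone sets apart about 1 in 20 groups. Old 1 h library 1 was the one set apart for Ighg2c (1499 CPM), Ighg2b (831 CPM), Ighg1 (433 CPM), Ighg3 (46.0 CPM), Ngp (384 CPM), Itga2b (57.1 CPM) and Ctla4 (21.5 CPM), each time as the highest, so IgG, a granule gene, a platelet gene and an inhibitory T cell receptor stood high in the same library. Old 1 h library 2 was lowest for Gga1 (96.9 CPM). Among young 1 h libraries, number 2 was highest for Ighg3 (0.475 CPM) and Gzmk (0.146 CPM), number 3 for Ms4a1 (18.1 CPM), and number 4 for Cd8a (12.4 CPM), Rplp1 (1253 CPM) and the Spearman rho of its deviation with GC content (0.501).

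For 39 named genes the age difference at 1 h departed from that in sham lung as fitted (interaction, log2, edgeR's quasi-likelihood test with Benjamini-Hochberg adjustment under 0.05). Among leukocyte genes these were Cd28 (1.72), Pdcd1 (1.65), Eomes (1.04), Klrb1c (0.92), Ngp (6.20), Casp1 (1.18) and Sp140 (0.65). The Ngp value rests on old 1 h library 1, without which its age difference at 1 h was 0.43 in place of 4.76. Loxl1, a matrix gene, was -0.96, Igfbp7, from the senescence list, was -0.53, and large falls were Erdr1 (-3.35), Thbs3 (-0.86), Matn4 (-1.42), Lyz1 (-1.42) and Prmt2 (-1.26). Epithelial genes were Ager (-0.74), Aqp5 (-0.90), Cldn18 (-0.67), Sftpb (-0.89), Abca3 (-0.87) and Krt7 (-0.99). Endothelial genes were Cdh5 (-0.73), Tie1 (-0.85) and Car4 (-0.54). Mitochondrial mRNAs were ATP8 (2.95), ND6 (3.57), ND1 (1.61), ND2 (2.13) and COX1 (0.75). The remaining genes were Dnajb4 (0.82), Cox4i1 (-0.72), Rplp1 (-1.16), Psmd4 (-0.82), Srebf1 (-0.48), Idi1 (1.13), Hmgcs1 (0.87), Ccng1 (0.87), Ppp1r2-ps1 (2.91), Ube2v2 (0.55) and Gga1 (-0.29). With the GC trend removed, 18 of the 39 interactions were called in the same direction.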

How the results depend on the processing

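At 1 h the count of genes called (4034 higher, 4231 lower) stayed within 1.5 times under every alternative run on all 4 libraries a group, from 2836 to 4481 higher and from 2888 to 4209 lower. Leaving out 1 library at a time gave 3638 to 3797 higher and 3782 to 3951 lower, and 2445 to 2710 and 2494 to 2784 with the GC trend removed, where all libraries gave 2976 and 2984. The difference between the age effects at 1 h and in sham lung depended on the GC trend: of 1588 higher and 1863 lower genes, 420 and 620 were called once it was removed, 459 and 625 with the length trend removed as well, and 388 and 594 with a replicate block added. With limma on log2(TPM + 1), 1021 were lower against 1871 higher, 64.7% of calls higher against 46.0%. Leaving out 1 library gave 1237 to 1632 higher and 1291 to 1721 lower, and 315 to 429 and 428 to 584 with the trend removed. The cause was not tested.

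The age difference in sham lung (214 higher, 240 lower) was 406 and 465 with DESeq2, 666 and 650 when only sham libraries were fitted, and 391 lower with limma. Leaving out 1 sham library gave 99 to 174 higher and 123 to 232 lower. The count higher fell by more than 1.5 times without old library 3 (121) or 4 (135) or without young library 1 (99), 2 (102), 3 (133) or 4 (111), and the count lower without old library 1 (123) or 3 (138) or without young library 1 (130), 2 (127) or 4 (146). The mitochondrial share stayed 1.97 to 2.33 percentage points higher in old lung without any 1 library (exact permutation p = 0.0571, the smallest that 3 against 4 allow), and 2.15 without ND6 and ATP8.

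Among named genes, Fundc2 went from 0.39 to -0.42 with the GC trend removed, -0.43 with GC and length trends removed and -0.42 with a replicate block and GC removal. Under the same alternatives Ube2v2 went from 0.47 to -0.39, -0.37 and -0.38, and Gga1 from -0.23 to 0.22, 0.21 and 0.22. Of 102 genes, 84 kept direction and call in every alternative scored. Fits that left out 1 library with the GC trend removed were not scored by gene. Naming genes by a small p or by calls in both fits favours a high count here. With the replicate number as a block, 4014 genes were higher and 4209 lower at 1 h, 1593 and 1846 in the interaction, and 183 and 224 in sham. Same-numbered old and young 1 h libraries deviated together little (correlations -0.008 to 0.215), and 1 of 4 matched best with its own number, so the numbers give no pairing here. Genes of few counts, such as the IgG genes in young lung, carry the widest errors.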
